A study of Caenorhabditis elegans with 9 samples.

Results

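The eggshell and egg activation genes described here are *chs-1*, *cbd-1*, *cpg-1*, *cpg-2*, *egg-1*, *egg-2*, *egg-3*, *perm-2*, *perm-4* and *mbk-2*. They were chosen by name for what they are known to do in making the eggshell or in starting the change from oocyte to embryo. All 10 were found among the 45495 genes of the deposited table, by matching its NCBI Gene numbers to the RefSeq symbols of the WBcel235 assembly. The labels list 9 whole-body samples of wild-type adult hermaphrodites of *C. elegans* at 20°C, in 3 groups of 3 named control, young stage ADF and middle stage ADF. The present values come from a single library, replicate 1 of young stage ADF, made from worms given alternate day fasting (ADF) for 7 days from the young adult stage, with M9 buffer named as the treatment. The libraries of control and of middle stage ADF, and the other libraries of young stage ADF, were not analysed here. No value below therefore has a replicate error, and none shows an effect of ADF.

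In *C. elegans*, the oocyte is loaded before ovulation with nearly everything it needs to build an eggshell, since transcription is silent in the maturing oocyte and the early embryo. The vitelline layer already surrounds the oocyte, and entry of a sperm sets off egg activation, in which chitin is made at the egg surface and proteins held in cortical granules are released to form the inner layers. Sperm entry, chitin synthesis and the end of oocyte programmes are tied together by a small protein complex at the egg cortex. In a whole worm most such RNAs are known to come from the oocytes and the germline that feeds them. Fewer such cells and less RNA per cell cannot be told apart in RNA from whole animals.

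The FPKM of a gene is its number of sequenced fragments, divided by the length of its transcript and by the total of the library. Low FPKM values of this library were multiples of whole fragments at a total of 18205146, where 77.3% of 6251 protein-coding genes with under 40 fragments lay within 0.02 of a whole number. By this total and the annotated exon lengths, the 10 genes were estimated to hold between 4954 and 57679 fragments each. The exact Poisson interval at 95% on those numbers was at most 2.82% above a gene's FPKM. Both the numbers and the intervals assume that the deposited values were computed over those lengths. These intervals cover counting error only, and not the spread between worms or between libraries. An FPKM of 0 was not read as silence, because 7 of 75 ribosomal protein genes were listed at 0.

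All 10 genes were abundant. Each had an FPKM of at least 1, which 26.2% of all genes and 56.9% of protein-coding genes reached. The latter share is the background for every count of single genes at 1 FPKM below. Each also had an FPKM of at least 100, which 8.15% of protein-coding genes reached. The median of the 10 was 410 FPKM, beside 16.9 FPKM over the 11351 protein-coding genes at or above 1 FPKM. Together they held 0.739% of the summed FPKM of the library. Their levels spanned 15.1-fold, from 122 FPKM for *chs-1* to 1839 FPKM for *cpg-2*.

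**Figure D1:**
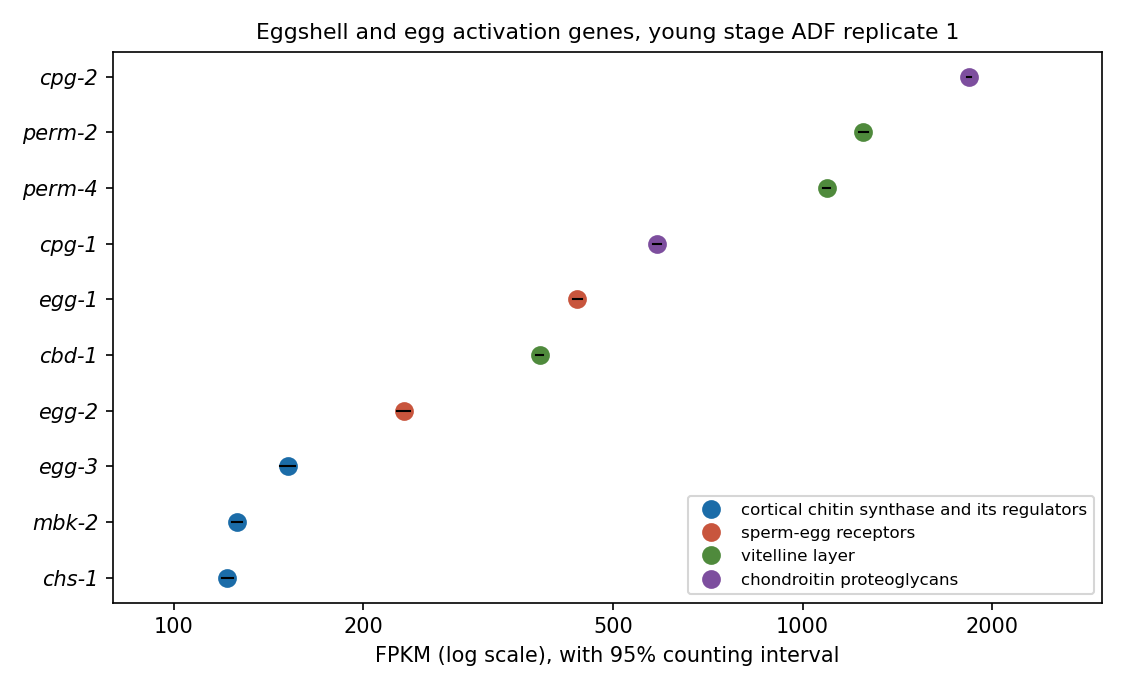
FPKM of the 10 eggshell and egg activation genes in young stage ADF replicate 1, on a log axis. Points are the deposited values, coloured by the role of the gene, and black bars are 95% counting intervals. The 3 genes of the cortical complex lie lowest, between 122 and 152 FPKM, while *cpg-2* is highest at 1839 FPKM.

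The lowest levels belonged to the genes of the cortical complex. *chs-1*, which encodes the chitin synthase of the eggshell, had 122 FPKM (95% interval 119.3 to 124.2) on 9511 fragments. *mbk-2*, which encodes the DYRK-family kinase that marks oocyte proteins such as OMA-1 and MEI-1 for destruction at egg activation, had 126 FPKM (95% interval 123.8 to 128.5) on 11119 fragments. *egg-3*, which encodes a protein related to tyrosine phosphatases that anchors CHS-1 and MBK-2 at the cortex, had 152 FPKM (95% interval 147 to 156) on 4954 fragments. Per length of all exons, the RNAs of the enzyme, the kinase and their anchor thus lay within a 1.25-fold range (95% interval 1.20 to 1.29 for *egg-3* over *chs-1*). The ratio of *mbk-2* to *chs-1* was 1.04 (95% interval 1.01 to 1.07), the smallest step between neighbours in the order of the 10 genes.

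The order within this trio rests on the lengths used. *mbk-2* spans 26804 bases and has 14 annotated transcripts, and 53.4% of its exon bases are coding, against 82.7% to 93.7% in the other 9 genes. Per base of coding sequence, the ratio of *egg-3* to *mbk-2* was 0.692 instead of 1.20, and that of *mbk-2* to *chs-1* was 1.79 instead of 1.04. Which *mbk-2* transcripts were present in the library is not given by a value per gene.

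*egg-1* and *egg-2* encode transmembrane proteins of the oocyte with LDL-receptor repeats, which a sperm must meet to enter. *egg-1* had 438 FPKM (95% interval 431 to 446) and *egg-2* had 232 FPKM (95% interval 227 to 237). The *egg-1* RNA was thus 1.89-fold more abundant per length (95% interval 1.84 to 1.94), beyond counting error. The ratio was 1.91 per base of coding sequence, so it did not turn on the length chosen. These are paralogs with similar gene structures, each with 1 transcript and 5 exons, of 1795 and 1765 bases. How fragments that could have come from either gene were assigned is not stated, and the ratio is uncertain to that extent.

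Of the genes of the vitelline layer, *cbd-1* encodes a large protein with chitin-binding domains on which the layer depends. It had 382 FPKM (95% interval 377 to 386). *perm-2* had 1250 FPKM (95% interval 1231 to 1269) and *perm-4* had 1093 FPKM (95% interval 1079 to 1108). PERM-2 and PERM-4 are secreted proteins that act with CBD-1 in the layer, and their RNAs were within 1.14-fold of each other (95% interval 1.12 to 1.17). The longer *cbd-1*, with 4221 exon bases, nevertheless took more fragments than either of them. It had 29330, against 16745 for *perm-2* with 736 exon bases and 22011 for *perm-4* with 1106 exon bases. The higher level of both *perm* genes is thus a statement per length.

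*cpg-1* and *cpg-2* encode proteoglycans that carry chondroitin chains and bind chitin, and they form the inner layer of the eggshell. *cpg-2* had 1839 FPKM (95% interval 1824 to 1854) on 57679 fragments and was the highest of the 10. *cpg-1* had 587 FPKM (95% interval 579 to 595) on 20192 fragments, so *cpg-2* was 3.13-fold higher (95% interval 3.08 to 3.18). Their exons are of similar length, 1723 and 1889 bases, and the difference was 2.86-fold in fragments alone. Both proteins act in the same layer, but their RNAs were not present in equal amounts.

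In the order of FPKM, *chs-1* was followed by *mbk-2*, *egg-3*, *egg-2*, *cbd-1*, *egg-1*, *cpg-1*, *perm-4*, *perm-2* and *cpg-2*. Of neighbours in this order, only *chs-1* and *mbk-2* had intervals that overlapped, although the interval of their ratio did not hold 1. The step from *cbd-1* to *egg-1* was 1.15-fold and that from *egg-1* to *cpg-1* was 1.34-fold. The larger steps were 1.53-fold from *egg-3* to *egg-2*, 1.64-fold from *egg-2* to *cbd-1*, 1.86-fold from *cpg-1* to *perm-4* and 1.47-fold from *perm-2* to *cpg-2*. Whether these steps exceed the spread between replicates could not be tested with 1 library.

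Ranked by FPKM among protein-coding genes, *cpg-2* was number 60, *perm-2* number 100 and *perm-4* number 115. *cpg-1* was number 201, *egg-1* number 265 and *cbd-1* number 305. *egg-2* was number 566, *egg-3* number 977, *mbk-2* number 1225 and *chs-1* number 1270. As percentiles of the protein-coding genes at 1 FPKM or more, the 10 genes ran from 88.8 to 99.5. By RNA level, the genes of the vitelline layer and the proteoglycan genes thus lay near the top, from number 60 to number 305. The receptor genes were not set apart from them, as *egg-1* ranked above *cbd-1* and *egg-2* below it. The genes of the cortical complex lay further down, near the upper shoulder of the distribution.

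**Figure D2:**
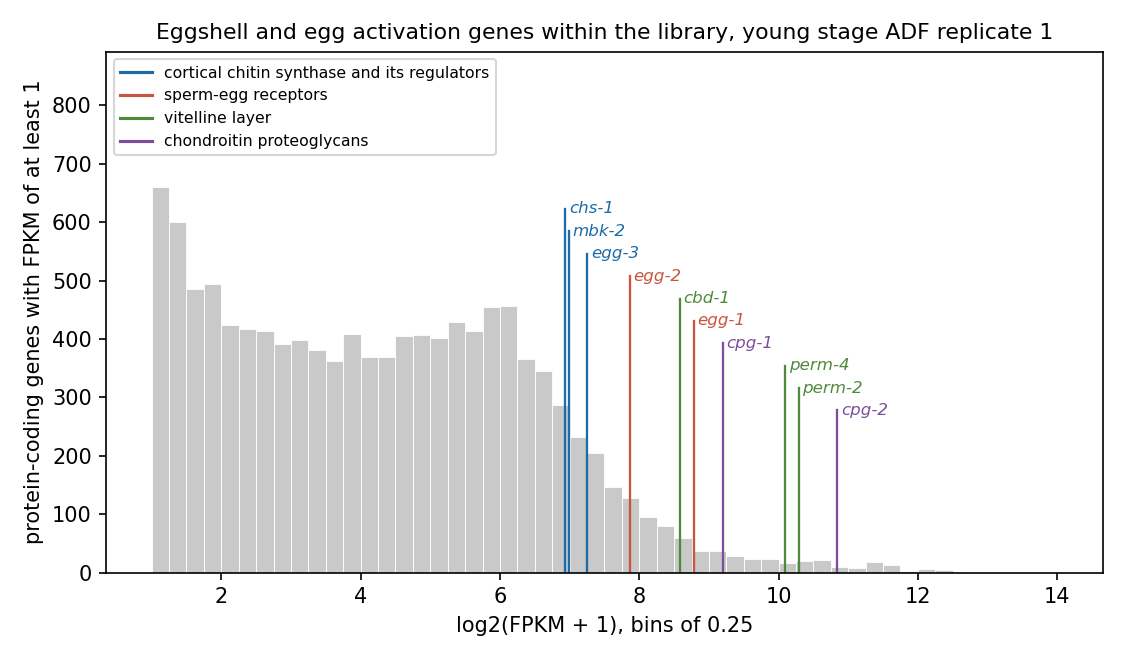
Grey bars count the 11351 protein-coding genes at or above 1 FPKM in bins of log2(FPKM + 1), and coloured lines mark the 10 eggshell and egg activation genes at their own values. The height of a line has no meaning. All 10 lie in the right part of the distribution, from the 88.8 to the 99.5 percentile.

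In the genome, *egg-1*, *egg-2*, *cpg-1* and *cpg-2* lie on chromosome III and *cbd-1*, *perm-2*, *perm-4* and *mbk-2* on chromosome IV. In coordinates of WBcel235, *egg-1* (B0244.8) runs from 5728180 to 5730159 on the plus strand and *egg-2* (R01H2.3) from 7058527 to 7060583 on the minus strand. *cpg-1* (C07G2.1) runs from 4489359 to 4491392 on the plus strand and *cpg-2* (B0280.5) from 7102090 to 7103990 on the minus strand, 41506 bases from *egg-2*. The paralogs of each pair are thus apart from each other, and neither pair is a tandem copy.

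On chromosome IV, *perm-4* (C44B12.5) runs from 1121494 to 1125107 on the minus strand and *perm-2* (C44B12.1) from 1126790 to 1128865 on the plus strand. *cbd-1* (H02I12.1) runs from 11372991 to 11377627 and *mbk-2* (F49E11.1) from 13009158 to 13035961, both on the plus strand. *chs-1* (T25G3.2) lies on chromosome I from 7554855 to 7559629 on the plus strand, and *egg-3* (F44F4.2) on chromosome II from 10882408 to 10884441 on the minus strand. Of the 10 genes, 7 have 1 annotated transcript.

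*perm-2* and *perm-4* are each other's nearest upstream protein-coding gene and are transcribed away from each other, with 1682 bases between them. No other pair of the 10 genes were neighbours. *perm-2* and *perm-4* thus share a role and an intergenic stretch. Their levels were within 1.14-fold per length of all exons and 1.24-fold per base of coding sequence. *egg-1* and *cbd-1*, on different chromosomes, were about as close, at 1.15-fold and 1.17-fold. Whether the shared stretch bears on the levels was not tested. The 18 other nearest neighbours are 1 on each side of the other 8 genes and the outer side of this pair. Of these 18, 9 had an FPKM of at least 1, beside 56.9% of all protein-coding genes, and 3 had an FPKM of at least 100, beside 8.15%. Their median was 1.07 FPKM, beside 1.93 FPKM over all protein-coding genes. No neighbour from outside the 10 genes had a higher FPKM than the gene beside it.

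Some of the 10 genes lay beside genes with little or no recorded RNA. *perm-4*, at 1093 FPKM, has *srx-13* downstream at 0.112 FPKM. *cpg-2*, at 1839 FPKM, lies 40 bases from ZK418.11, which was listed at 0, and its other neighbour, *odd-1*, had 1.56 FPKM. *egg-2*, at 232 FPKM, abuts R01H2.2, which was listed at 0, while R01H2.4, 439 bases upstream, had 0.0953 FPKM. *egg-1*, *egg-3*, *perm-2* and *mbk-2* overlap a gene of the opposite strand by 42, 21, 25 and 6 bases, and those genes had 0.0869, 2.40, 0.343 and 1.34 FPKM. Each of the overlapping genes was thus far below its eggshell or egg activation partner.

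Other genes had neighbours with clear levels. *cpg-1* lies beside *atf-7* at 102 FPKM and *ins-17* at 12.0 FPKM, and *cbd-1* beside *sec-31* at 43.9 FPKM. In all, 7 of the 10 genes had at least 1 neighbour from outside the group at 1 FPKM or more. The share of single protein-coding genes at that level, 56.9%, is not a matching background, because most of the 10 had an outside neighbour on each side. Whether the count is particular to these genes was not tested. Both neighbours of *chs-1* were level with it. The gene upstream of *chs-1* on the same strand, T25G3.1, had 119.2 FPKM and lies 301 bases away, and the gene downstream on the same strand, T25G3.3, had 118 FPKM and lies 209 bases away. The ratio of *chs-1* to T25G3.1 was 1.02 (95% interval 0.962 to 1.08) and that to T25G3.3 was 1.03 (95% interval 0.994 to 1.07). Per length of all exons, *chs-1* therefore did not differ from either neighbour beyond counting error. Per base of coding sequence the ratios were 0.925 to T25G3.1 and 0.993 to T25G3.3, the former outside its interval above. The match with T25G3.1 thus rests on the length used. In Ensembl, 1 transcript of *chs-1* runs 287 bases past the RefSeq end and into the first 78 bases of T25G3.3, though with only 5 exon bases past that end. The neighbours were examined after their values had been seen.

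**Figure D3:**
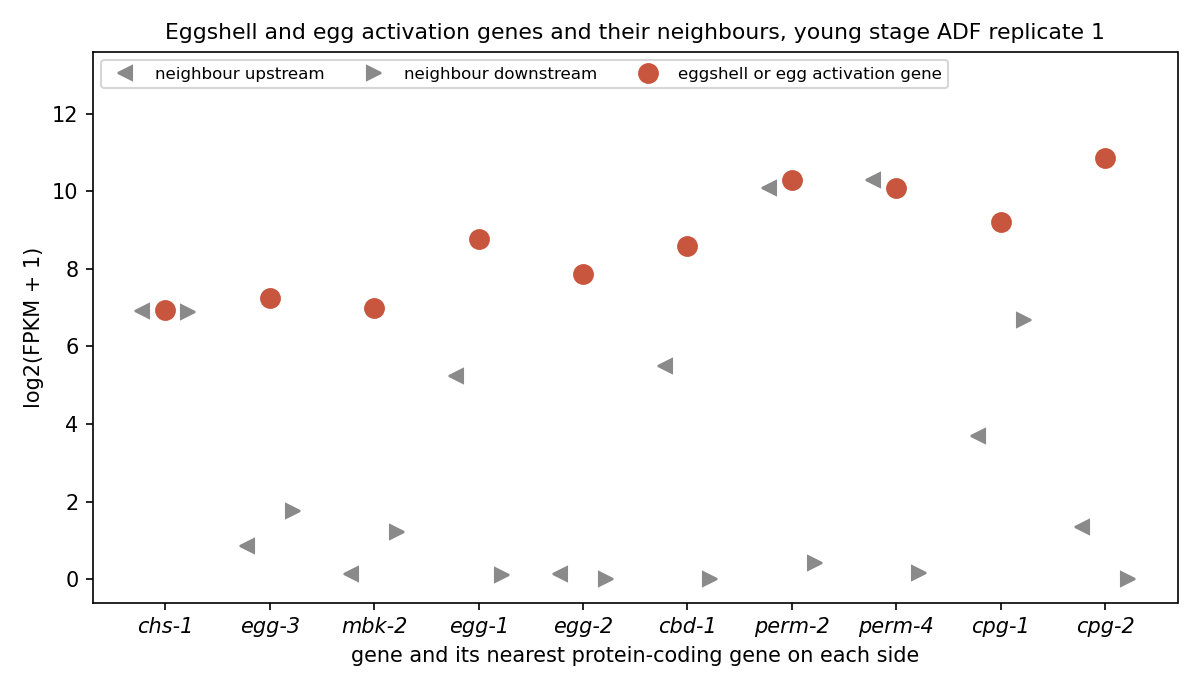
log2(FPKM + 1) of each eggshell or egg activation gene (circles) and of the nearest protein-coding gene upstream and downstream of it (triangles pointing left and right), with upstream taken in the direction of transcription. Of the 20 neighbours, 9 lie under 1 FPKM, both neighbours of *chs-1* are level with it, and *perm-2* and *perm-4* appear as each other's upstream neighbour.

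Other genes of the chitin synthase and kinase families were lower. *chs-2*, the chitin synthase of the pharynx, had 1.73 FPKM on 185 fragments, so *chs-1* was 70.3-fold higher (95% interval 60.8 to 81.8). *mbk-1* and *hpk-1*, which encode kinases related to MBK-2, had 15.4 and 14.4 FPKM, and *mbk-2* was 8.21-fold and 8.76-fold higher. Per base of coding sequence these folds were 14.7 and 10.3. *egg-6*, which shares the name but encodes an extracellular leucine-rich repeat protein, had 129 FPKM.

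*egg-4* and *egg-5* encode a pair of pseudophosphatases that hold MBK-2 in check in the oocyte. *egg-4* had 72.0 FPKM (95% interval 69.4 to 74.5) and *egg-5* had 80.4 FPKM (95% interval 77.7 to 83.1). Because the genes are nearly identical and how shared fragments were assigned is not stated, their ratio of 1.12 is uncertain. As listed, either was below each of the 3 cortical genes with which their products act, with the same doubt about shared fragments. Summed, the pair had 152.3 FPKM, beside 151.7 FPKM for *egg-3*, the highest of those 3 genes.

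Among other proteoglycan genes, *cpg-3*, which encodes a further chondroitin proteoglycan of the embryo, had 985 FPKM and lay between *cpg-1* and *cpg-2*. It was 1.68-fold above *cpg-1* (95% interval 1.64 to 1.71). *cpg-8* had 357 FPKM, *cpg-4* had 66.1 FPKM and *cpg-7* had 28.9 FPKM. *cpg-9* was listed at 0, where 3 fragments would be 0.219 FPKM. *cpg-5* and *cpg-6* matched no entry by name. Of the *cpg* genes found, *cpg-2*, *cpg-3* and *cpg-1* were thus the highest.

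The RNAs of enzymes that supply the sugars of chitin and chondroitin were lower than those of *cbd-1*, *perm-2*, *perm-4*, *cpg-1* and *cpg-2*. *gfat-1* and *gfat-2* encode the enzymes that make glucosamine phosphate, and had 209 and 357 FPKM. The next step uses *gna-1* or *gna-2*, of which *gna-2*, the gene needed for the eggshell, had 217 FPKM and *gna-1* had 17.9 FPKM, a 12.1-fold difference (95% interval 10.4 to 14.3). All 4 precursor genes were at 1 FPKM or more, with a median of 213 FPKM, and 3 of them were above *chs-1*.

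All 9 genes of chondroitin synthesis were at 1 FPKM or more, with a median of 64.3 FPKM. *sqv-4*, which encodes the dehydrogenase that makes UDP-glucuronic acid, was highest at 208 FPKM, and *sqv-1*, which encodes the enzyme that turns it into UDP-xylose, had 118 FPKM. The nucleotide sugar transporter gene *sqv-7* had 105 FPKM. *sqv-5* and *mig-22*, whose products lengthen the chondroitin chain, had 79.0 and 47.0 FPKM. The genes of the linker that joins chain to protein were *sqv-3* at 64.3 FPKM, *sqv-2* at 40.1 FPKM, *sqv-8* at 11.6 FPKM and *sqv-6* at 6.45 FPKM. The glycosyltransferases that act first and last on the linker, SQV-6 and SQV-8, thus had the lowest RNA levels of this list.

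The permeability barrier, the lipid-rich layer formed last, was covered by 10 genes, all at 1 FPKM or more, with a median of 75.5 FPKM. *perm-3* was highest at 234 FPKM. *pod-1*, which encodes an actin-binding protein of the coronin family, had 143 FPKM, and *emb-8*, which encodes the reductase that serves cytochrome P450 enzymes, had 104 FPKM. The near-identical cytochrome P450 genes *cyp-31A2* and *cyp-31A3* had 77.5 and 66.4 FPKM, with the same doubt about shared fragments. *perm-5*, *perm-1* and the acyltransferase gene *dgtr-1* had 85.6, 73.4 and 71.1 FPKM. The lowest were the acetyl-CoA carboxylase gene *pod-2* at 39.3 FPKM and the fatty acid synthase gene *fasn-1* at 26.2 FPKM. Except for *perm-3* and *pod-1*, these genes were below *chs-1*, the lowest of the 10 eggshell and egg activation genes.

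All 10 regulators of the passage from oocyte to embryo were at 1 FPKM or more, with a median of 187 FPKM. The zinc finger genes *oma-1* and *oma-2*, whose products are required for oocyte maturation, had 256 and 568 FPKM. The RNA-binding protein genes *puf-5*, *gld-1* and *lin-41* had 471, 94.3 and 83.1 FPKM. Of the genes that MBK-2 acts on or with, the katanin genes *mei-1* and *mei-2* had 103 and 255 FPKM, and *cdk-1*, whose kinase activates MBK-2, had 258 FPKM. The ubiquitin ligase genes *zyg-11* and *cul-2* had 118.9 and 74.8 FPKM. The range of this list, from 74.8 to 568 FPKM, overlapped that of the eggshell and egg activation genes.

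The sperm side of fertilization stood at the other end. None of the 6 sperm genes described reached 1 FPKM, which 56.9% of protein-coding genes did, and their median was 0.0524 FPKM. *spe-9*, which encodes a sperm surface protein with EGF repeats, was highest of these 6 with 0.217 FPKM (95% interval 0.0937 to 0.428) on 8 fragments. *spe-49* had 0.199 FPKM on 9 fragments and *spe-51* had 0.0694 FPKM on 2 fragments. *spe-38* and *spe-42* had 0.0355 and 0.0216 FPKM, which is at most about 1 fragment each. *spe-11*, a gene of the paternal contribution to the zygote, was listed at 0, where 3 fragments would be 0.169 FPKM. *trp-3*, a calcium channel gene also named *spe-41*, stands in the table under the latter name, with 0.646 FPKM on 32 fragments. In hermaphrodites, sperm are made before the germline turns to oocytes.

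Markers of cell types were measured in the same library. The oocyte markers *oma-1*, *oma-2*, *puf-5*, *lin-41* and the yolk receptor gene *rme-2* had a median of 318 FPKM and ranged from 83.1 to 568 FPKM. All but *rme-2* are also among the regulators above, so their values are not separate evidence. Of the 7 sperm markers, 4 were under 1 FPKM, namely *spe-9*, *spe-11*, *spe-38* and *spe-41*, whose values are those given above. The 7 markers ranged from 0 to 16.2 FPKM. The highest of these were the major sperm protein genes *msp-31*, *msp-56* and *msp-142*, which are near-identical copies. *msp-56* and *msp-142* had the same value, 5.58 FPKM. The yolk genes *vit-2*, *vit-5* and *vit-6* had 1228, 913 and 1363 FPKM, all below *cpg-2*, with *vit-5* below and *vit-6* above both *perm-2* and *perm-4*.

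Of the 3 markers of adult hypodermis, the collagen gene *col-19* had 691 FPKM, while *rol-6* had 6.05 FPKM and *bli-1* had 0.811 FPKM. The larval markers ranged from 0 to 29.4 FPKM, with *col-10* listed at 0. Of 6 genes switched on in the embryo, the highest, *elt-7*, had 9.01 FPKM, and the others ranged from 0.209 to 2.21 FPKM. The intestinal genes *ges-1* and *elt-2* had 12.0 and 5.97 FPKM. Markers of body wall muscle ranged from 8.54 to 66.1 FPKM, those of the pharynx from 1.42 to 3.18 FPKM and those of neurons from 5.40 to 339 FPKM. The label states adult animals, and the levels of the oocyte and yolk RNAs did not go against it, whereas the hypodermis markers were split. The larval markers were split too. *dpy-5* and *dpy-13*, at 29.4 and 29.2 FPKM, were above *rol-6* and *bli-1*, while *col-10* was listed at 0. The paper reports eggs that hatched inside worms under young stage ADF. Whether embryos or larvae added RNA to this library was not tested. How much of each eggshell RNA came from oocytes still in the gonad and how much from eggs held in the uterus was not tested.

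**Figure D4:**
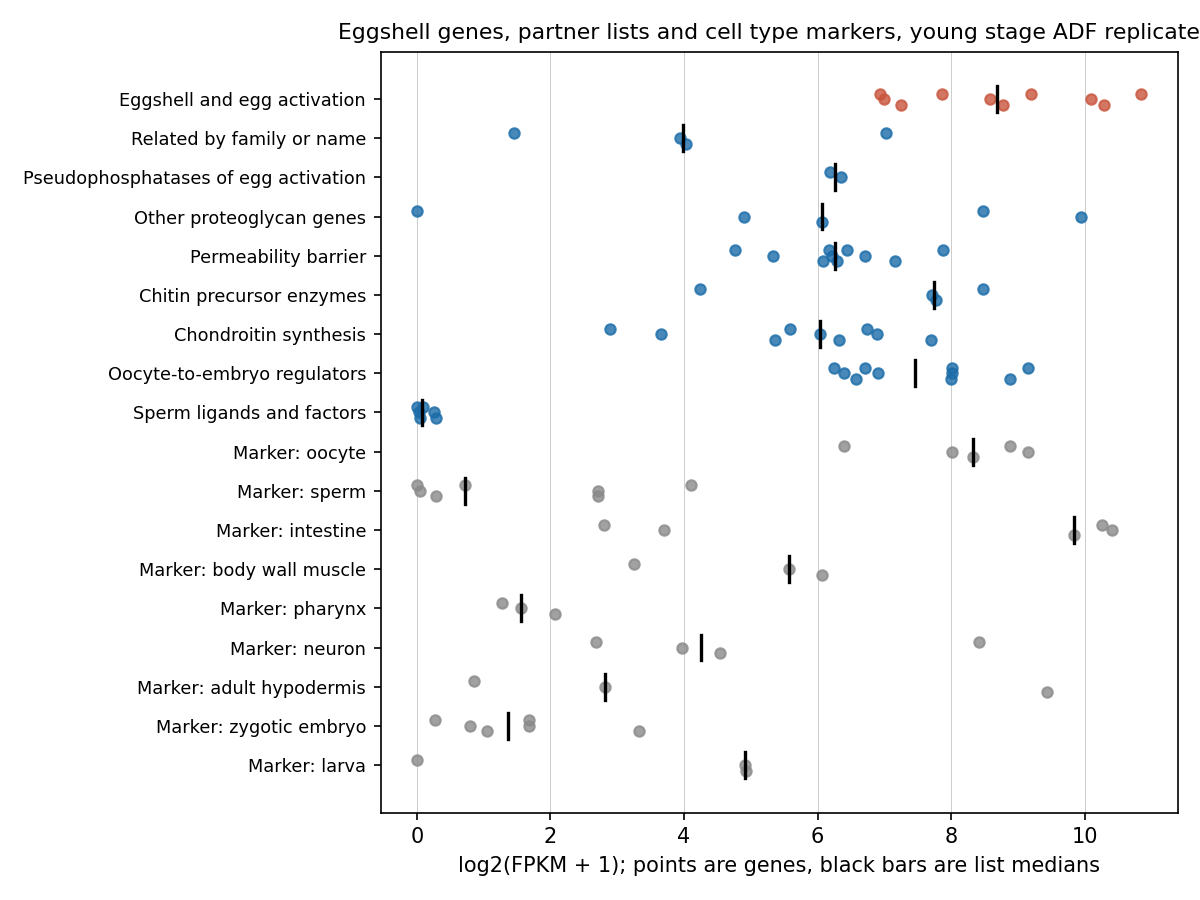
log2(FPKM + 1) of each gene (points) in the eggshell and egg activation list (red), the partner lists (blue) and the cell type markers (grey), with black bars at list medians and points offset vertically for sight. The eggshell and egg activation genes have a median of 410 FPKM, the oocyte markers 318 FPKM and the sperm ligands and factors 0.0524 FPKM.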

How the data were processed

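RNA of whole worms was sequenced, and the authors deposited FPKM values, 1 per NCBI Gene number. Their methods name HISAT2, the WBcel235 genome, Ballgown and a stranded KAPA kit, while the submitters' processing notes name Bowtie 0.12.2 and StringTie and the labels a TruSeq kit. Whether strand was used is not given in the sources used here. Of 45519 entries, 24 that name the mitochondrial genome and no gene, with 0.103% of the summed FPKM, were left out, and 44752 of the other 45495 matched RefSeq. Exon and coding lengths came from Ensembl release 115.

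The library total was estimated as the smallest value under which low FPKM became whole fragments, a step tested on simulated data. Fragments per gene were rounded, and intervals were exact at 95%, Poisson for levels and conditional binomial for ratios. The pseudocount was 1. With 1 library no group comparison and no p-value was possible. The planned sequence features were not computed, as no sequence was used here. The genes named are the 10 genes and every gene of the partner lists, with further names for markers and neighbours; 1 gene of the sperm list is not reported here. Genes and lists were chosen with earlier results of these data known. Tables were handled with pandas 2.3.3 and numpy 2.4.6 under Python 3.11.15, intervals computed with scipy 1.17.1 and figures drawn with matplotlib 3.10.9.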

Additional observations from a re-analysis of the deposited data

How the results depend on the processing

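No paired analysis was possible because no group had more than 1 library here. For the same reason no replicate could be left out. On the TPM scale, which multiplied every FPKM by 1.19, the summed level of the 10 genes was 7385 instead of 6220, and 7378 with entries that name no gene kept. All 10 genes passed thresholds of FPKM above 0, FPKM of at least 10 and TPM of at least 1. As the lowest of them had 122 FPKM, none of these thresholds could exclude a gene, so they did not test the count. The mean of the 10 was 622 FPKM, beside the median of 410 FPKM, and the log2 scales with pseudocounts of 1 and 0.1 gave 409 to 410 FPKM. The percentile of *chs-1*, the lowest, was 88.8 among protein-coding genes at 1 FPKM or more, 92.9 among all genes above 0, 91.9 among protein-coding genes at 0.1 FPKM or more and 89.3 among all genes at 1 FPKM or more.

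The order of some pairs rested on the division by length. In fragments without division by length, the ratio was 0.761 for *perm-2* to *perm-4*, 0.521 for *egg-3* to *chs-1*, 0.446 for *egg-3* to *mbk-2* and 2.86 for *cpg-2* to *cpg-1*. Per base of coding sequence it was 1.24, 1.24, 0.692 and 3.18, in the same order. Between all exons and coding sequence, only the pair of *egg-3* and *mbk-2* was thus reversed. *cpg-2* was above *cpg-1* under every setting. The ratio of *egg-1* to *egg-2* stayed within its interval under both. Counting only exons within the RefSeq span, an alternative chosen after seeing the data, kept all 10 fragment numbers and all 5 ratios within their intervals. It was hardly a test, because *chs-1* alone changed length, from 4293 to 4288 exon bases and thus from 9511 to 9500 fragments. Of the 5 ratios, only that of *egg-3* to *chs-1* could move.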
